A study of Mus musculus with 2 samples.

Results

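Hox genes encode homeodomain transcription factors that lie in 4 clusters in the mouse genome. The members described here are the annotated genes named Hoxa, Hoxb, Hoxc or Hoxd followed by a paralog number from 1 to 13, without antisense names. They were 39 of the 37309 genes in the GENCODE vM1 annotation of mm9. Hoxa holds 11 of them on chromosome 6, Hoxb 10 on chromosome 11, Hoxc 9 on chromosome 15 and Hoxd 9 on chromosome 2.

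Within a cluster all genes are transcribed from the same strand, and their order on the chromosome follows the order of their paralog numbers. Genes with low numbers are known to be expressed in the hindbrain from early development, genes with middle numbers in the spinal cord and trunk, and genes with high numbers in the lumbar and sacral trunk, the limbs and the genital region. The forebrain and midbrain are known to lie in front of the Hox expression domains. Which cells of the whole brain gave the Hox reads was not tested.

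The study sequenced polyadenylated RNA from whole brains of F1 embryos at E17.5 to look for imprinted expression. BxC embryos had a C57BL/6J mother and a CastEi/J father, and CxB embryos had the reverse. Each of the 2 libraries came from 1 embryo without pooling, and no treatment was given. The crosses were not tested against each other, because a single library stands for each. Every difference below is one between 2 libraries, and its interval covers counting error only.

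By the counts deposited with them, the alignments held 128944754 reads of 36 bases for BxC and 109719746 for CxB. Spliced alignments were 6.47% of the reads in BxC and 6.20% in CxB. Tubb3, Snap25, Stmn2 and Dcx, which define neurons, had from 16.4 to 974 reads per kb of exon scaled to the library total (RPKM) in BxC and from 16.9 to 840 in CxB. Ddx3y, a gene of chromosome Y, had 0 reads in BxC and 1296 in CxB, and Xist, the RNA of the inactive X chromosome, had 142957 and 38. Cross, embryo, sex and library therefore cannot be told apart. The second strand was marked with dUTP by the methods, but 56.8% of the exon reads of protein-coding genes in BxC and 57.4% in CxB lay on the strand opposite to the gene. Reads were counted on both strands, and reads of a Hox gene and of an antisense RNA over the same bases could not be told apart.

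The 4 clusters also hold microRNA genes, whose mature sequences are shown because they name the non-coding neighbours of the genes described here. The seed, bases 2 to 8, is in capitals, and the sequences are those of RefSeq for GRCm38.p6. The miR-10 genes lie in the span of Hoxb4 and in that of Hoxd3 and Hoxd4, and share 1 seed. The miR-196 genes lie between Hoxb9 and Hoxb13, between Hoxc9 and Hoxc10, and in Hoxa9, and share another. miR-615 lies in Hoxc5.
miR-10a-5p: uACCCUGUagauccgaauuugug
miR-10b-5p: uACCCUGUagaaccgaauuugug
miR-196a-5p: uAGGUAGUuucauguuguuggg
miR-196b-5p: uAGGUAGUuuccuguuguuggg
miR-615-5p: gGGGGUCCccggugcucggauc

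The reads that cross an exon junction show the mature Hox RNAs directly. The junctions below are the one with the most reads, in Hoxb3, and those of Hoxa and Hoxb genes of paralog numbers 5 to 8, whose exon reads are compared further on. Each line gives the last 15 bases of one exon and the first 15 of the next, 5′ to 3′ on the strand of the gene, from mm9. The capitals mark the bases on either side of the junction.
Hoxb3, intron chr11:96202466-96205413, + strand: tcgtcggtggctaAGGTcagccgcttggaa
Hoxb5, intron chr11:96165490-96166203, + strand: ttcacatcagccaCGATatgactgggccag
Hoxa5, intron chr6:52152831-52153787, - strand: tgcacattagtcaCGACaatataggtggcc
Hoxb6, intron chr11:96160906-96161982, + strand: tgaattcgtgcaaCAGTtcctcttttgggc
Hoxa6, intron chr6:52156624-52158184, - strand: tgaattcctgtgcGGGTgccgtgtatggga
Hoxb7, intron chr11:96148442-96150690, + strand: ggatgcgaagctcAGGGcctgaccgaaagc
Hoxa7, intron chr6:52166030-52167028, - strand: ggatgcgcagttcAGGAcccgacaggaagc
Hoxb8, intron chr11:96144701-96145476, + strand: ggatgcgccctcaAGCAgccgccggacgca
Hoxb8, intron chr11:96144701-96145479, + strand: ggatgcgccctcaAGCCgccggacgcaggc

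Hox RNA was read from all 4 clusters, and mostly from paralog numbers 2 to 5. At least 10 exon reads in each library were found for 20 of the 39 genes, or 51.3%, against 72.3% of all protein-coding genes. A further 3 genes, Hoxa7, Hoxb9 and Hoxc6, reached 10 reads in BxC only, and 0 genes did so in CxB only. The other 16 genes stayed under 10 reads in both libraries, and 8 of them had no read in either. Summed over the 39 genes, the exon counts were 16312 in BxC and 9488 in CxB. A read over exon bases shared by Hox genes entered this sum for each of them.

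**Figure D1:**
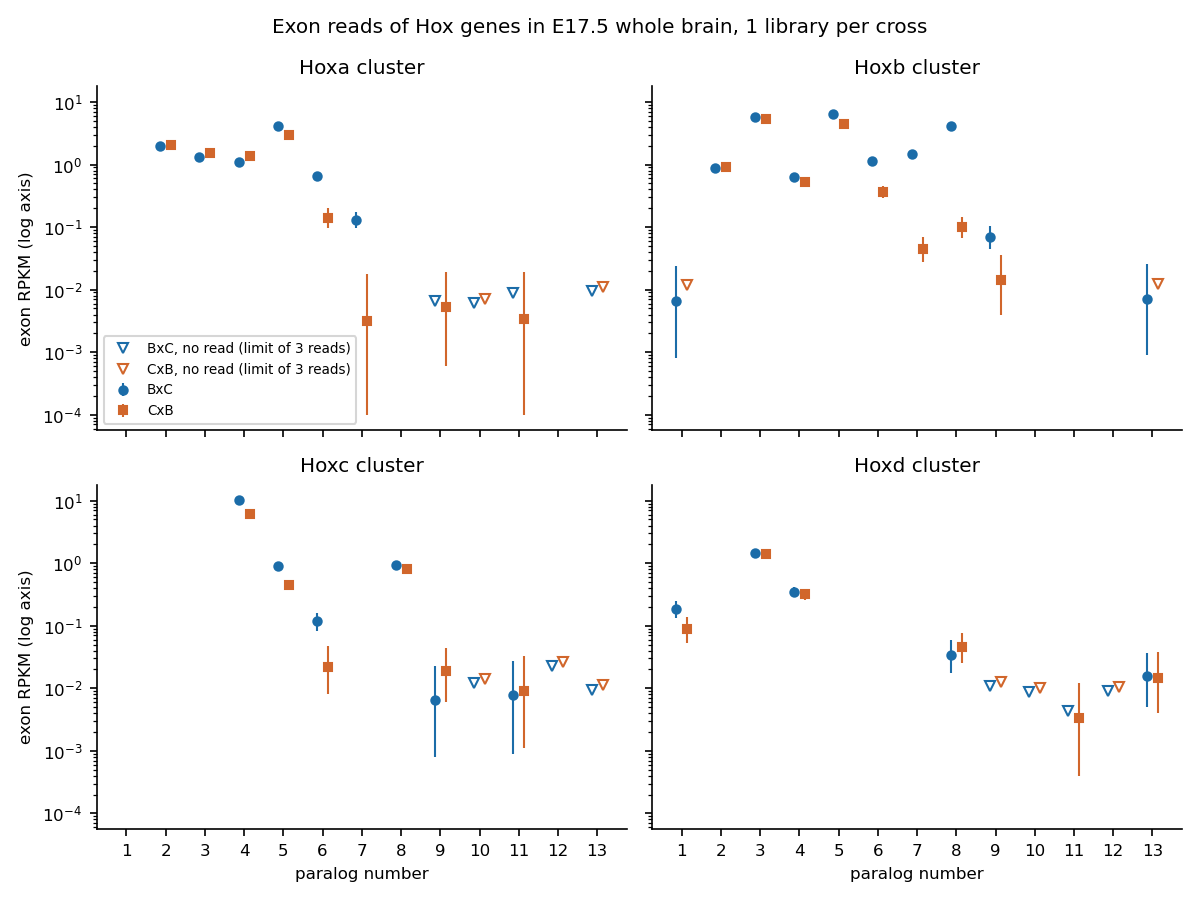
Exon RPKM on a log axis against paralog number, 1 panel per cluster, with BxC as circles and CxB as squares. Bars are exact Poisson intervals at 95%, and open triangles stand at the limit of 3 reads for genes without a read. The levels lie between 0.317 and 10.1 RPKM for paralog numbers 2 to 5 and near or under 0.07 RPKM from paralog number 9 on. The intervals of the libraries lie apart at Hoxa3, Hoxa5 to Hoxa7, Hoxb5 to Hoxb9 and Hoxc4 to Hoxc6, with CxB higher at Hoxa3 only.

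Hoxc4 had the highest level in both libraries, at 10.1 RPKM in BxC and 6.11 in CxB. In BxC, Hoxb5 came next with 6.42 RPKM and then Hoxb3 with 5.74, while in CxB Hoxb3 with 5.27 came before Hoxb5 with 4.51. Hoxa5 had 4.11 and 2.92. These are levels per length and depth, and the median over all protein-coding genes was 1.57 RPKM in BxC and 1.58 in CxB. In BxC, Hoxb8 lay between Hoxb3 and Hoxa5 at 4.18 RPKM, and its interval overlapped that of Hoxa5. In CxB, Hoxb8 was the sixteenth, at 0.10 RPKM.

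At the low-number ends of the Hoxb and Hoxd clusters the first gene was low. Hoxb1, which marks a single rhombomere of the early hindbrain, had 2 reads in BxC and 0 in CxB. Hoxd1 had 44 and 18, or 0.18 and 0.09 RPKM.

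Over all exon reads, paralog numbers 2 and 3, known for the rhombomeres and pharyngeal arches, had log2 ratios of CxB over BxC from -0.12 to 0.22. Hoxa2, the Hox gene with the most anterior border, had 609 reads in BxC and 542 in CxB, and its log2 ratio of CxB over BxC reads scaled to the library totals was 0.06 (95% interval -0.10 to 0.23). Hoxb2 had 381 and 331 reads, with a log2 ratio of 0.03. Hoxa3 had 1147 and 1136 reads and a log2 ratio of 0.22 (0.10 to 0.34). Over its 508 and 462 distinct positions and strands the ratio was 0.10 (-0.09 to 0.28), an interval that holds 0. Hoxb3 had 2224 and 1739 with -0.12, and Hoxd3 had 1102 and 883 with -0.09. Over exon bases that no other annotated gene overlaps, Hoxb3 had -0.32 (-0.47 to -0.18) and Hoxb2 -0.23 (-0.71 to 0.23). On such bases the ratio was 0.09 for Hoxa2, 0.24 for Hoxa3 and -0.10 for Hoxd3. Over all reads of paralog number 2 the log2 ratio was 0.05 (-0.08 to 0.18), and over those of number 3 it was -0.02 (-0.08 to 0.04).

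Paralog numbers 4 and 5 were lower in CxB for some members and not for others. Hoxa4 had 222 reads in BxC and 239 in CxB and had a log2 ratio of 0.34 (0.07 to 0.61), the highest of the Hox genes that held at least 100 reads in the sum of both libraries. Hoxb4 had 341 and 242 reads, with a log2 ratio of -0.26, and Hoxd4 had 115 and 89, with -0.14. Over exon bases that no other gene overlaps, Hoxd4 had 35 and 20 reads, with -0.57 (-1.44 to 0.26). Hoxa5 had 995 and 602 reads and Hoxb5 2328 and 1392, with log2 ratios of -0.49 and -0.51. Hoxc5 had 342 and 142 reads, with a log2 ratio of -1.04 (-1.33 to -0.75), the lowest among paralog numbers 1 to 5 with at least 100 reads in the sum. Over all reads of paralog number 5 the log2 ratio was -0.55 (-0.62 to -0.47). Over those of number 4 it was -0.58 (-0.65 to -0.51), but Hoxc4 held 3334 of the 4012 reads in BxC, and without Hoxc4 the ratio was -0.02 (-0.18 to 0.15), from 678 and 570 reads.

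Hoxc4 needs limits beside its level. It had 3334 reads in BxC and 1714 in CxB, a log2 ratio of -0.73. The reads lay on 446 distinct positions and strands in BxC and on 348 in CxB, and the log2 ratio of these positions was -0.12 (-0.33 to 0.08). Per kb of exon these were 174 positions in BxC and 136.1 in CxB, fewer than the 255 and 211 of Hoxb3 and the 234 and 162 of Hoxb5, so the first place of Hoxc4 held over reads but not over positions. The first 2 kb at the low-number end of the Hoxc cluster, around the coding part of Hoxc4, held 3217 of the BxC reads and 1658 of the CxB reads. Hoxc4 had 0 spliced reads in either library, while Hoxb3 had 167 in BxC and 104 in CxB.

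Among the Hox genes with at least 100 reads in the sum, the libraries differed most for Hoxb8, Hoxb7, Hoxa6 and Hoxb6. Genes of paralog numbers 6 to 8 are known to pattern the cervical and thoracic levels. Hoxb8 had 1427 exon reads in BxC and 29 in CxB. Its level was 41.9 times higher in BxC, and the log2 ratio of CxB over BxC was -5.39 (-5.97 to -4.86). Hoxb7 had 789 reads in BxC and 20 in CxB, with a log2 ratio of -5.07 (-5.79 to -4.43). Over all exon reads both genes passed the detection minimum of 10 reads in each library, and the intervals of both ratios lay far from 0. Over exon bases that no other gene shares, Hoxb7 had 3 reads in CxB, under that minimum, and Hoxb8 had 12.

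Other members of these numbers were also lower in CxB, apart from Hoxc8 and Hoxd8. Hoxb6 had 308 reads in BxC and 82 in CxB, with a log2 ratio of -1.68 (-2.05 to -1.32). Hoxa6 had 167 and 31 reads, with -2.20 (-2.80 to -1.64). Hoxa7 had 48 reads in BxC and 1 in CxB, with -5.35 (-10.69 to -2.80), and Hoxc6 had 38 and 6, with -2.43 (-3.96 to -1.18). Hoxd8 did not share the direction, with 12 reads in BxC and 14 in CxB and an interval that holds 0.

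**Figure D2:**
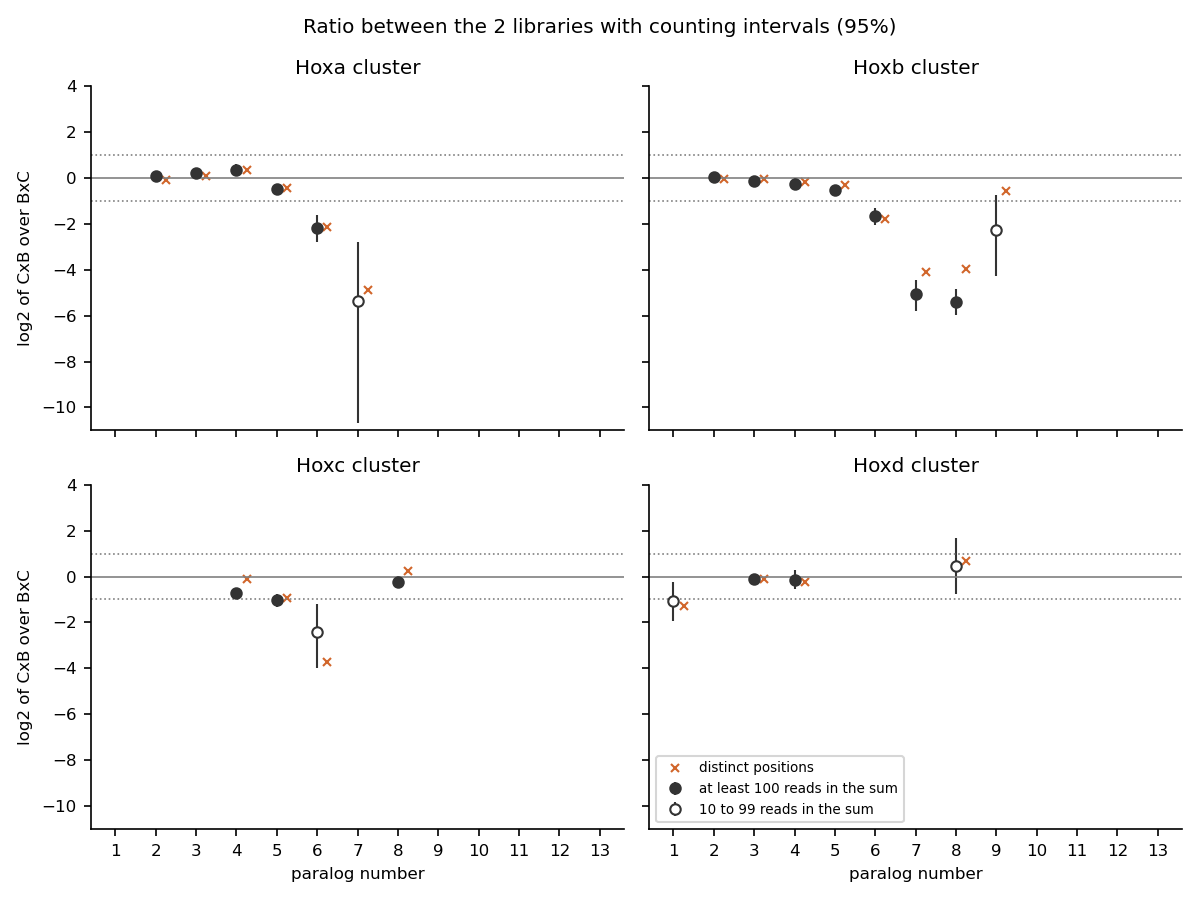
Log2 of CxB over BxC reads scaled to the library totals against paralog number for Hox genes with at least 10 reads in the sum and a read in each library, with exact conditional binomial intervals at 95%. Filled circles have at least 100 reads in the sum, crosses give the same ratio over distinct positions, and dotted lines mark 2-fold. In the Hoxb panel the value is 0.03 for Hoxb2, -1.68 for Hoxb6 and -5.39 for Hoxb8.

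In the Hoxb cluster the log2 ratio over all reads was 0.03 for Hoxb2, then -0.12, -0.26, -0.51, -1.68 and -5.07, and -5.39 for Hoxb8. The intervals of Hoxb7 and Hoxb8 overlapped, and over distinct positions their order was the reverse, with -4.12 and -3.96. On the own strand Hoxb3 had -0.14 and Hoxb4 -0.09. Over exon bases that no other gene shares, Hoxb2, Hoxb3 and Hoxb4 had -0.23, -0.32 and -0.26. Over distinct positions they had -0.05, -0.04 and -0.19, so the order from Hoxb2 to Hoxb4 depended on the count. The next gene, Hoxb9, was higher again at -2.29 (-4.28 to -0.74), and over its 7 and 4 positions the ratio was -0.57 (-2.79 to 1.40), an interval that holds 0. In the Hoxa cluster the ratio rose from Hoxa2 to Hoxa4 and was then lower for each of Hoxa5, Hoxa6 and Hoxa7. In the Hoxc cluster it was lower for Hoxc5 than for Hoxc4, and the value of Hoxc6 was -2.43. The Hoxd cluster has no annotated Hox gene between Hoxd4 and Hoxd8.

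The ratios were set beside those of all genes. With at least 100 reads in the sum of both libraries, 17 Hox genes entered, and 5 of them were lower in CxB past 2-fold, namely Hoxb8, Hoxb7, Hoxa6, Hoxb6 and Hoxc5, against 0.369% of the 17078 genes that entered. None of the 17 was higher in CxB past 2-fold, against 0.363% of all genes, and 0.732% of all genes passed 2-fold in either direction. Of the 5 genes, Hoxc5 alone had 100 reads in each library, so the others entered through BxC and their count is a description. With at least 100 reads in each library, 12 Hox genes entered, 1 was lower past 2-fold, against 0.0648%, and 0 were higher, against 0.0713%. That gene, Hoxc5, stayed short of 2-fold over distinct positions, with a log2 ratio of -0.93. The median log2 ratio of the 12 was -0.17, and that of all 15427 genes with as many reads was -0.0011. With spliced reads over gaps that match no annotated intron left out, 11 Hox genes entered, Hoxc8 not among them, and their median was -0.12.

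From the lowest ratio up, Hoxb8 was the first of 14879 protein-coding genes with at least 100 reads in the sum, Hoxb7 the second, Hoxa6 the third and Hoxb6 the fifth. Among genes of all types, Xist and Tsix lay below Hoxb8. Hoxc5 was at place 40 among the protein-coding genes and Hoxc4 at place 103. Hoxa4 was at place 14263, near the other end. Hoxb8, Hoxb7, Hoxa6 and Hoxb6 reached 100 reads through BxC, where they were high, so their places are a description.

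Other counts of the same genes gave the same direction. Counted once per position and strand, Hoxb8 reads covered 474 positions in BxC and 26 in CxB, and the log2 ratio of the positions was -3.96 (-4.58 to -3.39). For Hoxb7 the positions were 347 and 17, with a log2 ratio of -4.12. The annotated exons of Hoxb7 and Hoxb8 overlap, and over the exon bases that no other gene shares, Hoxb8 had 882 reads in BxC and 12 in CxB and Hoxb7 had 239 and 3. Hoxb6 had 201 and 49 positions, and Hoxa6 had 114 and 22.

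Unspliced intron reads, which come from RNA that was not yet spliced or from RNAs that overlap the intron, also differed. In the introns of paralog numbers 6 to 8 there were 205 such reads in BxC and 16 in CxB, a log2 ratio of -3.45 (-4.28 to -2.71). Hoxb6 introns held 175 of them in BxC and 8 in CxB. In the introns of paralog numbers 1 to 5 there were 2824 and 2026, a log2 ratio of -0.25. The spans of Hoxa3 and Hoxd3 enclose introns of other Hox genes, and reads there entered for each gene. The antisense RNA 0610040B09Rik, named Hoxb5os by RefSeq, spans from Hoxb6 to Hoxb5, and its part in the Hoxb6 reads was not tested.

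Summed over paralog numbers 6 to 8 and 1 to 5, junction reads differed between the libraries in the direction of the exon reads. Over annotated introns of paralog numbers 6 to 8 there were 28 reads in BxC and 2 in CxB, and over those of numbers 1 to 5 there were 197 and 132. Hoxb3 alone held 167 of the 197 and 104 of the 132. Among genes the junction reads did not follow the exon reads, since Hoxc4 had 0 in either library. The Hoxb7 junction had 9 reads in BxC and 0 in CxB, that of Hoxb6 had 7 and 1, and those of Hoxa6 and Hoxa7 had 1 and 0 each. Hoxb8 was read at both of its acceptors, which lie 3 bases apart, with 3 and 4 reads in BxC and 0 at either in CxB. Hoxd8 also has a pair of acceptors 3 bases apart, with 2 reads at the first in BxC and 1 at the second in CxB.

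In all, a read over an annotated intron was found for 18 Hox genes in BxC, for 12 in CxB and for 11 in both. The junction with the most reads was that of the 2.948-kb intron of Hoxb3, with 145 reads in BxC and 90 in CxB. The Hoxb3 intron of 17.618 kb, which reaches back toward Hoxb4, had 13 and 8. Hoxb5 had 4 reads and 1, Hoxa5 had 6 and 3, and Hoxd3 had 4 and 6 over its 1.766-kb intron.

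Many coding exons of paralogs end alike, as the printed junctions show. Among 19 genes with a read over an intron between coding exons, the last 15 exon bases matched at a median of 10 bases in the 15 pairs that share a paralog number, with a range from 4 to 13. The lowest was that of Hoxa2 and Hoxb2. In the 45 pairs of adjacent numbers the median was 6 and the range from 3 to 11, and in the 111 pairs at least 2 numbers apart the median was 4 and the highest 8. Hoxa7 and Hoxb7 matched at 13 of the 15 bases, and Hoxa5 and Hoxb5 at 12. Of the 36-base windows in the exons of the 39 genes, 99.4% nevertheless occur once in mm9, and the lowest share for a gene was 95.7%, for Hoxc9.

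**Figure D3:**
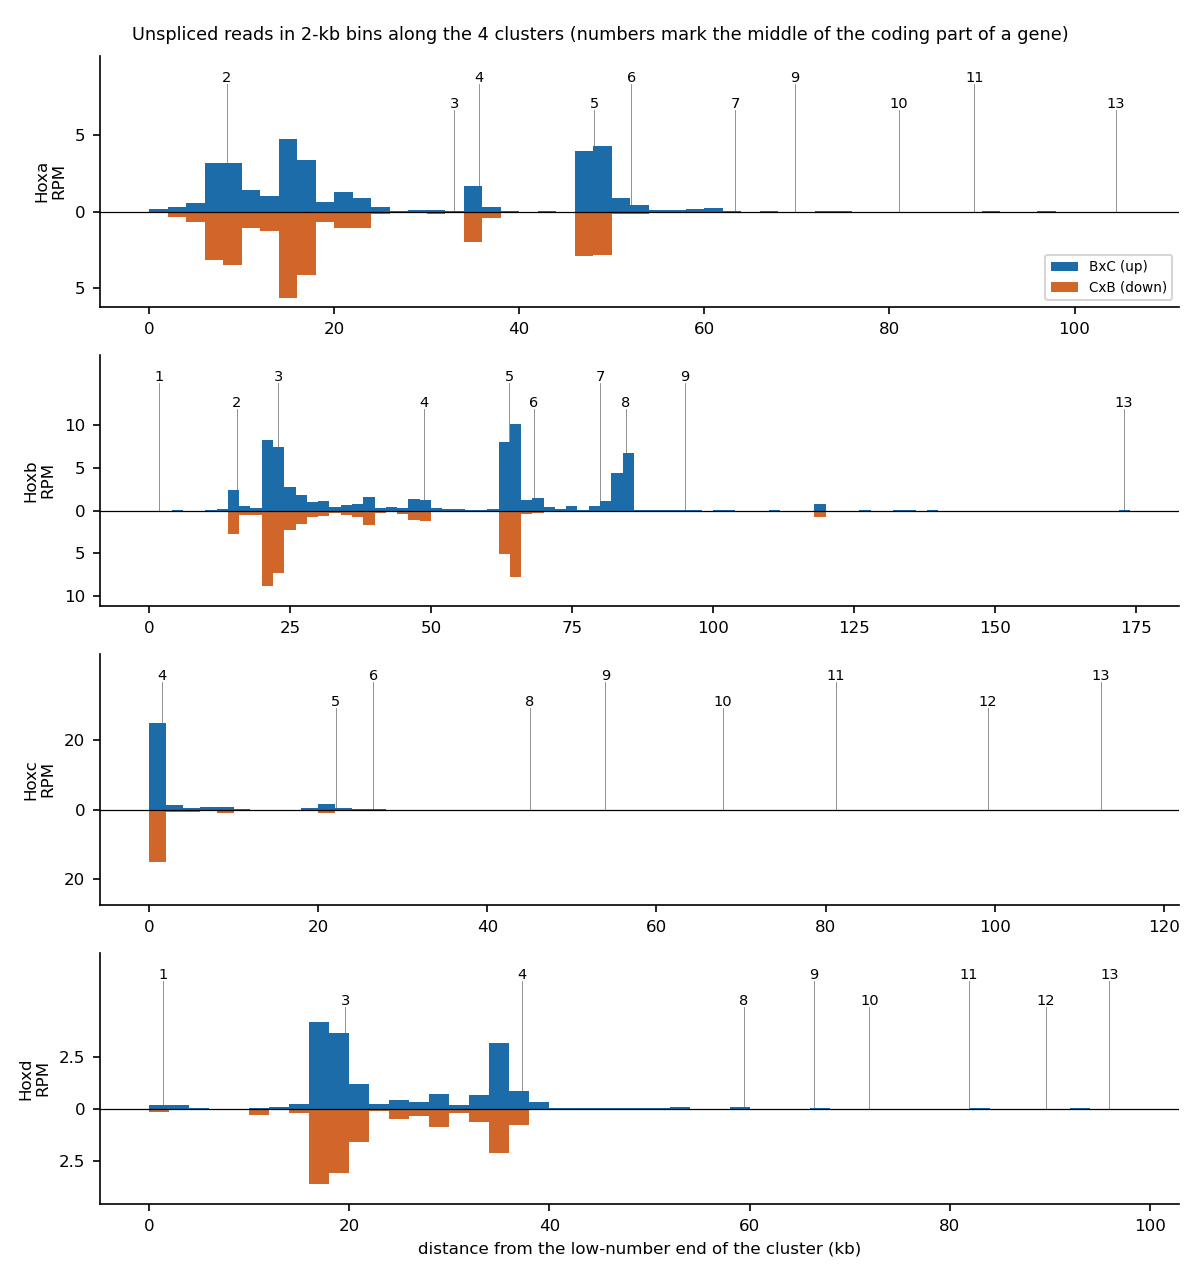
Unspliced reads scaled to the library total (RPM) in 2-kb bins along each cluster, by distance in kb from its low-number end, with BxC drawn upward and CxB downward, and numbers at the middle of the coding part of a gene. Each panel has its own scale. Around Hoxb8 the BxC bars have almost no counterpart in CxB, while the bars from Hoxb2 to Hoxb5 are present in both.

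Hoxc8 stood apart by how its reads aligned. It had 281 reads in BxC and 205 in CxB, which would place it at 0.95 and 0.81 RPKM. Of these, 278 and 197 were spliced alignments over gaps that match no annotated intron and that end in a repeat of CA. The repeat has 26 units over 52 bases, chr15:102823607-102823658 of mm9, and starts 323 bases after the end of the coding part. Only 3 reads in BxC and 8 in CxB were left without them. The start of the repeat is shown here on the + strand, chr15:102823601-102823630, with the repeat in capitals.
Hoxc8, repeat: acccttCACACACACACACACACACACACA

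The unannotated gaps were of 1975 and 14 bases. The first had 103 reads in BxC and 71 in CxB and the second 175 and 126, and the bases at the ends of the gaps were GT and AC for the first and AC and AC for the second, where annotated Hox introns read here had GT and AG. Of the Hoxc8 reads, 87.2% in BxC and 85.9% in CxB lay on the opposite strand, above the range of 51.5% to 67.2% for the other Hox genes with at least 100 reads in BxC. Without these alignments Hoxc8 would fall below the detection minimum in both libraries. The summed counts of paralog numbers 6 to 8 without Hoxc8 were 2789 in BxC and 183 in CxB. Reads over exon bases shared by Hoxb7 and Hoxb8 entered for both.

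By summed RPKM, paralog numbers 1 to 5 held 80.0% of the Hox signal in BxC and 94.5% in CxB. These sums count reads over shared bases for each gene. Paralog numbers 6 to 8 held 19.8% and 5.26%, and numbers 9 to 13 held 0.24% in each library. Without Hoxc8, numbers 6 to 8 held 2.54% in CxB, and numbers 1 to 5 held 81.8% in BxC and 97.2% in CxB. The Hoxb cluster held 46.8% of the sum in BxC and 40.4% in CxB, and the Hoxd cluster held 4.67% and 6.40%.

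Paralog numbers 9 to 13 include the genes that pattern the lumbar and sacral levels, the limbs and the genital tubercle. Their 16 members had 34 exon reads in BxC and 20 in CxB in all, and 15 of them stayed under 10 reads in both. Hoxb9 was the exception, with 23 reads in BxC and 4 in CxB, on 7 and 4 positions. Hoxd13 had 5 and 4 reads, Hoxc9 had 2 and 5, and Hoxc11 had 2 and 2. Hoxa10, Hoxa13, Hoxc10, Hoxc12, Hoxc13, Hoxd9, Hoxd10 and Hoxd12 had 0 reads in both. A count of 0 allows 3 reads, which for these 8 genes lies between 0.0061 and 0.0226 RPKM in BxC and between 0.0071 and 0.0265 in CxB by the length of the gene, so the levels of these genes were not detectable at this depth. The introns of these 8 genes also held no read, and those of all 16 members held 6 reads in BxC and 13 in CxB.

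Reads between neighbouring genes were counted as well. The 39 genes form 35 neighbouring pairs, of which 6 overlap in the annotation and 29 leave bases between them, 213.39 kb in all. These gaps held 1383 unspliced reads in BxC and 1276 in CxB. At least 1 read per kb in each library was found in 9 of the 29, against 52.1% of the 23235 gaps of up to 74.009 kb between annotated genes across the genome. The median was 0.78 reads per kb in BxC and 0.63 in CxB, and 1.77 and 1.54 over the genome. Of the 9 gaps that end at paralog number 6 or lower, 6 had at least 1 read per kb in each library, and of the 15 that start at number 8 or higher, 2 had.

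**Figure D4:**
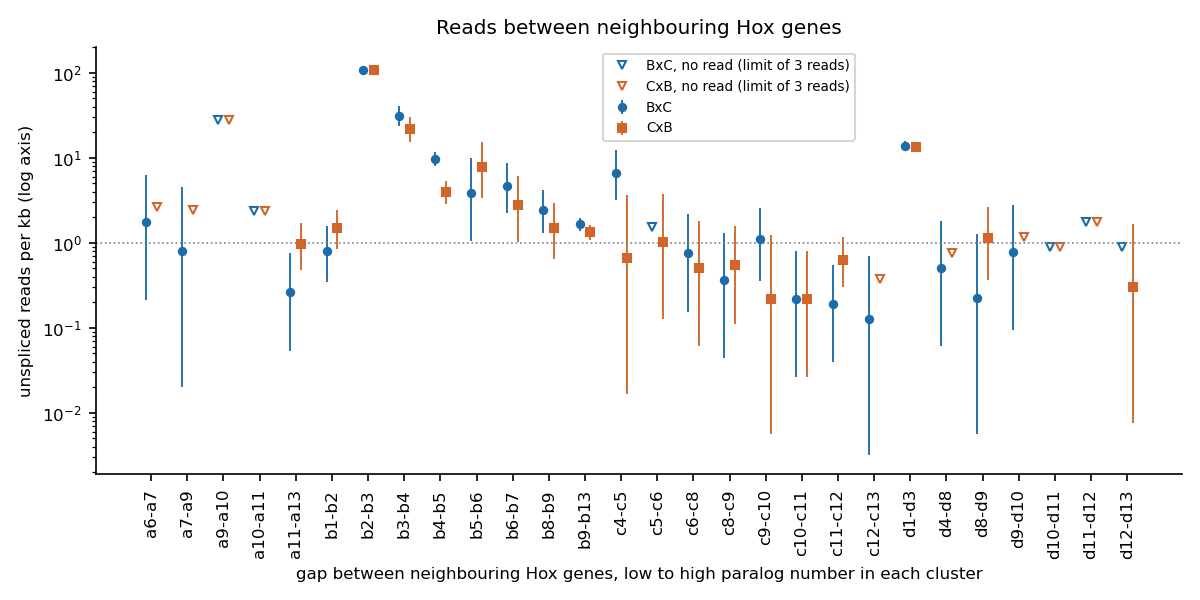
Unspliced reads per kb on a log axis for gaps between neighbouring Hox genes, with exact Poisson intervals at 95%, BxC as circles and CxB as squares, and open triangles at the limit of 3 reads where there was no read. The dotted line is at 1 read per kb. The gap between Hoxb2 and Hoxb3 is the highest, at 107 reads per kb in BxC and 109 in CxB.

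Some gaps with many reads lay over annotated non-coding RNAs. Between Hoxb2 and Hoxb3, where the antisense RNA Hoxb3os is annotated, there were 531 reads in BxC and 540 in CxB. Between Hoxd1 and Hoxd3, where 6720416L17Rik, or Haglr, is annotated, there were 13.8 and 13.4 per kb. At least 1 kb from any Hox gene, the first gap held 84 reads in BxC and 108 in CxB, and the second 53 and 70. In the second gap, 62 reads in BxC and 48 in CxB lay on the 0.23 kb that no other annotated gene covers. The log2 ratios of CxB over BxC were 0.26 (0.08 to 0.43) for the first gap and 0.19 (-0.10 to 0.48) for the second. The gap between Hoxb3 and Hoxb4, in which no other gene is annotated, had 53 reads in BxC and 37 in CxB, or 31.4 and 21.9 per kb. All of this gap lies within 1 kb of a Hox gene.

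Farther along the clusters the gaps did not share 1 direction. Between Hoxb4 and Hoxb5 there were 103 reads in BxC and 42 in CxB, a log2 ratio of -1.06 (-1.61 to -0.53). Between Hoxc4 and Hoxc5 there were 10 and 1. Between Hoxb8 and Hoxb9 there were 13 and 8, with an interval that holds 0. Reads were more in CxB between Hoxa11 and Hoxa13, with 3 in BxC and 11 in CxB, each on 3 positions, and between Hoxc11 and Hoxc12, with 3 and 10 on 1 and 6 positions. Their log2 ratios were 2.11 (0.19 to 4.59) and 1.97 (0.01 to 4.47). The 74.009-kb gap between Hoxb9 and Hoxb13 had 123 and 99 reads, a log2 ratio of -0.08 (-0.48 to 0.31), of which 100 and 76 fell on the pseudogene Gm11539, at 7 and 5 positions.

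Apart from microRNA entries, 22 other annotated genes lie in the 4 clusters, and 8 of them had at least 10 reads outside Hox exons in each library. Hoxb3os had 417 reads in BxC and 389 in CxB, 5730596B20Rik 134 and 122, Gm15051 114 and 107, and 6720416L17Rik 113 and 95. These lie at the low-number ends, as do Gm15050 with 54 and 70 reads, 5730446D14Rik, or Hoxaas2, with 19 and 26, and Gm11536 with 18 and 12. The eighth is the pseudogene Gm11539. The RNAs opposite the middle genes had fewer reads in CxB. 0610040B09Rik, or Hoxb5os, had 36 reads in BxC and 4 in CxB, and 2700086A05Rik, or Hoxaas3, whose span covers Hoxa4 to Hoxa6, had 21 and 0. 1700109F18Rik, or Hoxd3os1, had 9 and 0. Gm16258, or Hotair, which lies between Hoxc11 and Hoxc12, had 0 and 7. Between Hoxd1 and Hoxd3, Gm14424 had 5 reads in BxC and 20 in CxB and Gm14426 had 2 and 0. RP23-329P9.11 had 2 reads in each library, Hoxa11as had 1 and 0, and Gm53 had 0 and 3. No read was found for 9930038K12Rik, Gm11538 and Gm14396. Gm20398 has no base outside Hox exons and Gm20440 has 64, so their reads could not be counted apart.

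The microRNA hairpins themselves had no reads but 1 over Mir10b in CxB, in libraries of polyadenylated RNA. Within 1 kb of the hairpin, reads of Hox exons included, there were 36 reads in BxC and 10 in CxB at Mir10a, and 40 and 8 at Mir10b. At Mir615, in the intron of Hoxc5, there were 253 and 119. Hoxb4 and Hoxd4, in whose spans the miR-10 genes lie, had log2 ratios of -0.26 and -0.14 over their exons. At Mir196a-1, Mir196a-2 and Mir196b there were at most 2 reads in either library.

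Genes that act with or on Hox genes were read for comparison. The TALE homeodomain proteins, which bind DNA together with Hox proteins, were all expressed, with 9 of 9 at 100 reads or more, a median log2 ratio of -0.05 and a range from -0.16 to 0.05. Among the Meis genes, Meis2 had 25.2 RPKM in BxC and 25.7 in CxB and Meis3 had 22.1 and 21.5. Of 14 upstream regulators, such as Egr2 of the early rhombomeres and the retinoic acid receptors and enzymes, 8 had at least 100 reads in the sum, with log2 ratios from -0.11 to 0.18. Cyp26b1, which breaks down retinoic acid, was the highest at 13.2 and 13.5 RPKM, and Rara had 5.40 and 5.36. Cdx1, Cdx2 and Cdx4, which act on Hox genes of the trunk, and Cyp26c1 stayed under 10 reads in both libraries.

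Of the chromatin regulators, the Polycomb and Trithorax group genes and demethylases known to hold Hox genes off or on, all 15 measured had at least 100 reads, with a median log2 ratio of 0.03. Kdm6b, an H3K27 demethylase, was the highest at 29.9 RPKM in BxC and 30.02 in CxB, before Mll2 with 20.2 and 20.6 and Mll1 with 19.2 and 18.9. Kdm6a, an X-linked demethylase of the same mark, had the lowest log2 ratio, at -0.60. The ParaHox genes, the sister cluster of the Hox genes, numbered 6, and 4 of them, Pdx1 and the Cdx genes, stayed under 10 reads in both libraries. Gsx1 and Gsx2, which act in the ventral forebrain, had 189 and 173 reads in BxC and 151 and 187 in CxB. Of all these genes with at least 100 reads in the sum, 0 passed 2-fold in either direction, against 0.732% of all genes.

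Markers of brain regions and other tissues were placed beside the Hox ratios. In bulk RNA, fewer cells of a type and less RNA per cell cannot be told apart. The 13 forebrain and midbrain markers had a median log2 ratio of -0.03, from -0.12 to 0.29, and summed to 265 RPKM in BxC and 257 in CxB. The 12 hindbrain markers had a median of -0.07 and summed to 34.6 and 32.4 RPKM. Among them Lbx1, of dorsal hindbrain and spinal cord neurons, had the lowest ratio, with 927 reads in BxC and 577 in CxB, a log2 ratio of -0.45.

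The motor neuron markers were 4. Mnx1, the defining gene of spinal motor neurons, had 13 reads in BxC and 1 in CxB, a log2 ratio of -3.47 (-8.88 to -0.73). Isl1, Chat and Slc5a7, which cranial motor neurons and other brain neurons share, had log2 ratios of 0.14, -0.07 and -0.06, and the summed level of the 4 was 4.97 RPKM in BxC and 5.23 in CxB. Mnx1 moved in the direction of Hoxb8 and Hoxb7, but on few reads, and Isl1, Chat and Slc5a7 stayed near 0. Its part in the difference of Hoxb8 and Hoxb7 was not tested.

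The 12 markers of muscle, cartilage, limb and kidney summed to 8.19 RPKM in BxC and 9.02 in CxB. Pax2, listed for kidney, was the largest part, at 3.71 and 3.63 RPKM, and the sums give no level of any 1 tissue. Of the markers, 5 had at least 100 reads in the sum of both libraries, with a median log2 ratio of 0.16. Among the markers of muscle, Myod1 had 9 reads in BxC and 1 in CxB, Myog 9 and 22, and Ckm 155 and 202. Pitx1 had 56 and 86. The other kidney genes, Cdh16 and Umod, were at 0 in BxC, with 4 and 1 reads in CxB.

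**Figure D5:**
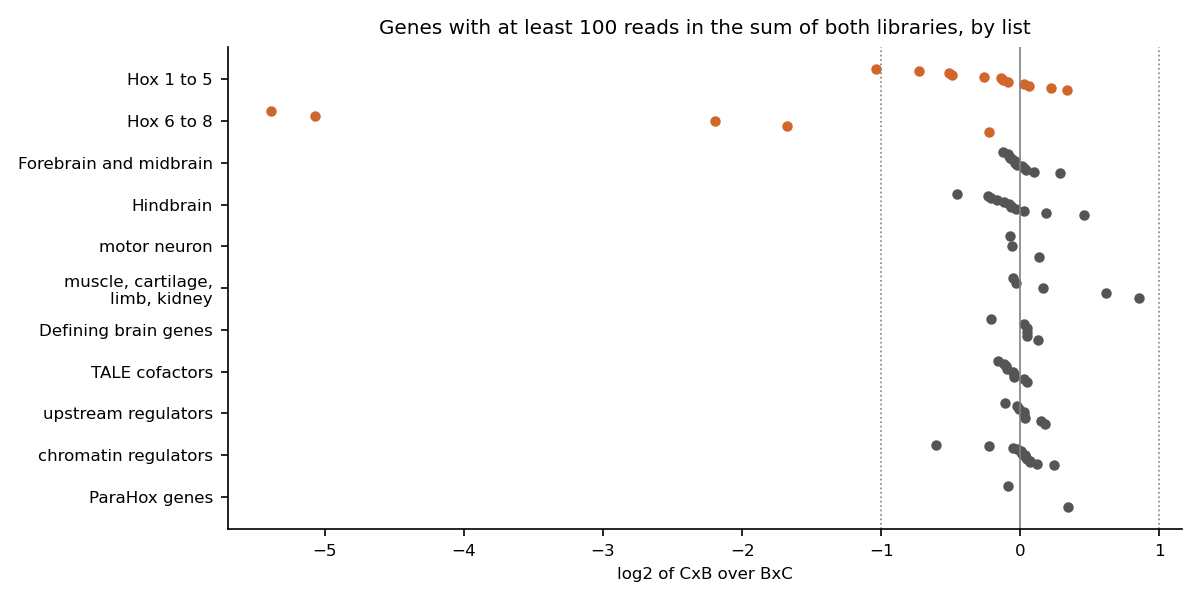
Log2 of CxB over BxC for each gene with at least 100 reads in the sum of both libraries, by list, with 1 point per gene, dotted lines at 2-fold and the points of a list spread vertically in order of value. Hox genes of paralog numbers 6 to 8 reach -5.39, Hox genes of numbers 1 to 5 reach -1.04, and every gene of the lists without Hox genes lies between -0.60 and 0.85.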

How the data were processed

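The authors aligned the reads with Novoalign and deposited, per the labels on mm9, 1 list of alignments for each library with a whole-number count on each line. These deposited counts were taken as reads and were not normalized. The meaning of the count column was inferred from its values. Both totals lie above the average number of reads that the study gives for its libraries, so this meaning is uncertain. Counts with 1 read per line were run as an alternative. Alignments fit the chromosome lengths of mm9 except for 4 bases at the end of chromosome 9. Members and lists were chosen with earlier results of these data known.

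Reads with an aligned block over an exon of GENCODE vM1 were counted for its gene, and a read over bases of several genes was counted for each. The 2 gene identifiers of Hoxa3 were merged. The design had set reads on the gene's own strand as the main count. The files do not resolve strand, so both strands were counted and each strand became an alternative. RPKM are reads per kb of exon, scaled to the total of the library. Ratios are log2 of CxB over BxC reads scaled to the library totals, with exact conditional binomial intervals at 95%. Counts carry exact Poisson intervals. Detection took 10 reads in each library and ratios 100, and the ratios over 100 reads in the sum were added after seeing the data. Genes named are the members, all other annotated genes in the cluster spans, and, of the lists of cofactors and regulators, the highest 3 and those under 10 reads. Tubb3, Ddx3y, Xist, Tsix and markers at the ends of their list were chosen after their values were seen. Values of some genes under these rules are not reported here. Counting and intervals were tested on simulated data with Python 3.11.15, numpy 2.4.6, pandas 2.3.3 and scipy 1.17.1. The known imprinted gene catalog was not used here.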

Additional observations from a re-analysis of the deposited data

How the results depend on the processing

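The direction of the ratios of Hoxb8, Hoxb7, Hoxb6, Hoxa6, Hoxc5 and Hoxc4 was the same under every alternative run for them. No paired analysis was possible because each cross has 1 library. With at least 100 reads, 12 Hox genes were detected. The share of paralog numbers 1 to 5 moved beyond its counting interval under most counts. In BxC it was 82.0% on the own strand, 78.5% on the opposite strand, 75.6% with 1 read per line, 76.1% over distinct positions, 80.8% over exon bases of 1 gene, 81.7% without spliced reads over unannotated gaps and 81.0% without division by length. In CxB it was 96.1%, 93.4%, 93.2%, 93.9%, 94.4%, 97.1% and 95.7% in the same order. With the bases of other annotated genes left out, 5 gaps had at least 1 read per kb in each library. Over bases at least 1 kb from any Hox gene, 6 gaps did. The median log2 ratio of -0.17 lay between 2 genes whose intervals average -0.35 to 0.006. The median was -0.38 at a minimum of 10 reads, and -0.26 both with at least 100 reads in the sum and over exon bases of 1 gene. With chromosomes X and M left out of the total it was -0.18. Nearer to 0 were -0.09 with 1 read per line, -0.10 over distinct positions, -0.09 on the own strand and -0.11 on the opposite strand. Without spliced reads over unannotated gaps it was -0.12. The number of Hox genes lower in CxB past 2-fold was 1 with at least 100 reads in each library, 6 with at least 10 in each and 5 with at least 100 in the sum. It was 0 with 1 read per line, over distinct positions, on the own strand and on the opposite strand, since Hoxc5 then falls above 2-fold or under 100 reads. The log2 ratio ranged from -5.97 to -3.96 for Hoxb8 and from -6.08 to -4.12 for Hoxb7, and was lowest over exon bases of 1 gene and highest over distinct positions. For Hoxc4 it was -0.73 over reads and -0.12 over distinct positions. Depth limits what can be said of paralog numbers 9 to 13 and of Hoxa7, Hoxc6, Hoxd8 and Mnx1. Intervals cover counting error only, not the spread between embryos.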
